A study of Homo sapiens with 12 samples.

Results

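The genes described here encode 9 subunits of the Polycomb complexes, namely EZH2, EED, SUZ12, JARID2, MTF2, PHF19, C17orf96, CBX2 and CBX8. They were chosen by gene name in the deposited H3K27me3 peak lists, first for peaks centred within 10 kb of a transcription start site (TSS) and then for peaks at any distance. Of the 9 genes, 5 had a peak within 10 kb and 8 had a peak at any distance, among 18981 and 23021 genes named in all lists. JARID2 was the 1 gene that no peak was assigned to. The intervals of the 9 genes were followed in 4 ChIP-seq libraries from T24 cells, an established human bladder cancer line.

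Cells had received 5 µM GSK-126, 5 µM fenretinide, 5 µM of each in combination, or DMSO as vehicle, and all were treated for 72 h. GSK-126 inhibits the methyltransferase EZH2, and fenretinide is a synthetic retinoid. There was 1 library per condition, so no value below has a replicate check and no p-value was computed. The intervals given in parentheses after ratios are 95% counting intervals and compare these libraries only. The 4 input libraries and 4 RNA-seq libraries of the study were not analysed here, so nothing is said of expression, and a single histone mark offers no check of the cell line's identity.

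Polycomb repressive complex 2 (PRC2) methylates histone H3 at lysine 27, and its core is formed by the catalytic subunit EZH2 with EED and SUZ12. Accessory subunits such as JARID2, MTF2, PHF19 and the product of C17orf96, now named EPOP, bind the core and take part in bringing it to chromatin. H3K27me3 is read by EED itself and by the chromodomain (CBX) subunits of canonical Polycomb repressive complex 1 (PRC1), of which CBX2 and CBX8 are members. The mark typically lies over silent or weakly transcribed genes and is known in cancer cells for broad domains.

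The total of fragments in the 273664 consensus intervals was 16156194 with GSK-126, 18928836 with fenretinide, 15812933 with the combination and 17133107 with vehicle. Values below are fragments, or FPKM, that is fragments per kb of interval scaled by these totals, and ratios compare the share of a library. A gene was called lower at a ratio of at most 0.5 and higher at a ratio of at least 2, where the counting interval excluded 1 and the 2 libraries together held at least 50 fragments. Less of the mark per cell and fewer cells with the mark cannot be told apart in such data. No exogenous reference was described in the sources used here, so a fall is a fall in library share. Intervals exist only where a peak was called in at least 1 library, so the counts of measured genes below describe these genes and support nothing beyond them.

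None of the 9 RefSeq 5′ ends lay inside an H3K27me3 interval of any library, whereas 26.6% of 15812 protein-coding genes with a listed start had theirs in one. Of the 6 genes whose start is in the same list, 0 did. The nearest interval edge was at a median of 3388 bp from the start of those 6 genes, against 2984 bp for the protein-coding genes. An interval lay within 10 kb of 5 of the 6, where 72.4% of protein-coding genes had one. Over all 9 genes, by the RefSeq 5′ end, the median was 2687 bp and 8 had an interval within 10 kb. The closest was at CBX2, 310 bp upstream, followed by CBX8 at 976 bp, EED at 1419 bp and MTF2 at 2331 bp, all upstream. Downstream of the 5′ end, the nearest edges were 2687 bp away at PHF19 and 3702 bp away at C17orf96. For EZH2, JARID2 and SUZ12 the nearest intervals lay 4117, 8938 and 11101 bp upstream. Distances to RefSeq 5′ ends were added after the deposited distances had been seen.

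The start regions, which lie in no called interval and so have no fragment count, are shown for the 3 core genes and for MTF2. They run from 250 bases before to 50 bases after the start, on the strand of the gene (RefSeq, build GRCh38.p14). Capitals mark each CG dinucleotide, which reads the same on both strands and cannot overlap itself. The EZH2 region is chr7:148884242-148884541 on the minus strand. On the plus strand, the EED region is chr11:86244503-86244802, that of SUZ12 is chr17:31936757-31937056 and that of MTF2 is chr1:93079033-93079332.
EZH2: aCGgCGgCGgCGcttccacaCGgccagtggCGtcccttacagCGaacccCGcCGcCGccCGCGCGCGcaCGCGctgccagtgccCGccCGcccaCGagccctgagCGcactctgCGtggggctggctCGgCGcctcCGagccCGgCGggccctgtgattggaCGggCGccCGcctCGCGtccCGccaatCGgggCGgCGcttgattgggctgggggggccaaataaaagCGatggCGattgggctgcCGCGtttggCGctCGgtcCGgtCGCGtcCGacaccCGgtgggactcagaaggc
EED: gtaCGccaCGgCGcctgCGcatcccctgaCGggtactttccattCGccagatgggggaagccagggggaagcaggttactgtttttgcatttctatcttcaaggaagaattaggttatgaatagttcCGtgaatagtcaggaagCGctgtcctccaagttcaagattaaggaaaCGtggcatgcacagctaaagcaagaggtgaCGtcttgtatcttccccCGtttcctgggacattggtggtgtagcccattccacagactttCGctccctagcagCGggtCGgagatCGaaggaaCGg
SUZ12: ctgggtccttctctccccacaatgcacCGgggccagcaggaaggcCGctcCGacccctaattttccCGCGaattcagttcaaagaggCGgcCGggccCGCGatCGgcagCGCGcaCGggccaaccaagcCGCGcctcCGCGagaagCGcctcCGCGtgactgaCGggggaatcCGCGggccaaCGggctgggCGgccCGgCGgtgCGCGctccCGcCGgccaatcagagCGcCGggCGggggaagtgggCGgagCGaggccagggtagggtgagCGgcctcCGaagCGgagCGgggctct
MTF2: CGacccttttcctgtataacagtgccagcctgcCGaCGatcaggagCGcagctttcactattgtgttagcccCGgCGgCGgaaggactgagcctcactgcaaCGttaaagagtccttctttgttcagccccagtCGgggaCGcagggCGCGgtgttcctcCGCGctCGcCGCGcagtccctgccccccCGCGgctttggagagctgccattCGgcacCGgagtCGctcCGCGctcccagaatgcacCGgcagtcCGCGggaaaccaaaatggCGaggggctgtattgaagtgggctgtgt
The EZH2 region held 46 CG dinucleotides, a count reached by 3.73% of the 22199 promoters in the RefSeq table. SUZ12 had 40, a count reached by 9.80% of promoters, and MTF2 had 28, reached by 33.8%. EED had 16, below the median of 21 over all promoters and reached by 60.6%. The median was 23 CG dinucleotides in promoters whose start lay in no interval and 11 in those whose start lay in one. These letters are a description of the sequence and do not mark a binding site.

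Broad peaks near these genes were fewer with GSK-126 than in the other lists, and their summed length was smaller. Within 10 kb of a start site, 2 of the 9 genes had a peak with GSK-126, 5 with fenretinide, 4 with the combination and 5 with vehicle. Of the 18981 genes with such a peak in any list, 66.3% had one with GSK-126, 78.5% with fenretinide, 79.0% with the combination and 76.8% with vehicle. The summed peak length was 2703 bp with GSK-126, 30959 bp with fenretinide, 12085 bp with the combination and 37435 bp with vehicle. Over the peaks of all genes within 10 kb, the median length was 1491 bp with GSK-126, 1578 bp with fenretinide, 1429 bp with the combination and 1644 bp with vehicle. Of the 25 peaks within 10 kb of the genes described here, 24 were annotated as intergenic, and the remaining one lay in exon 5 of CBX2. At any distance, the genes had 19 peaks with GSK-126, 35 with fenretinide, 35 with the combination and 26 with vehicle, beside 217751, 234815, 274393 and 212277 peaks over the genome. Of the 115 peaks of these genes, 103 were intergenic, 11 intronic and 1 exonic.

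Peak shape differed between libraries at the CBX genes. CBX8 had 1 peak of 1240 bp with GSK-126, 1 of 14725 bp with fenretinide, 2 of 6407 bp in total with the combination and 1 of 14031 bp with vehicle. CBX2 had no peak within 10 kb with GSK-126, against 2 with fenretinide, 1 with the combination and 2 with vehicle. This count depends on the limit, since a GSK-126 peak was centred just past it, at a distance of -10444 bp. That peak lay in the same interval as the vehicle peak of 13144 bp centred at -8855 bp. A peak of MTF2 within 10 kb was present in all 4 lists, of 1463 bp with GSK-126, 4195 bp with fenretinide, 3566 bp with the combination and 1598 bp with vehicle. Peaks were called in each library apart, and the fragments below were counted over the same intervals in all 4.

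**Figure D1:**
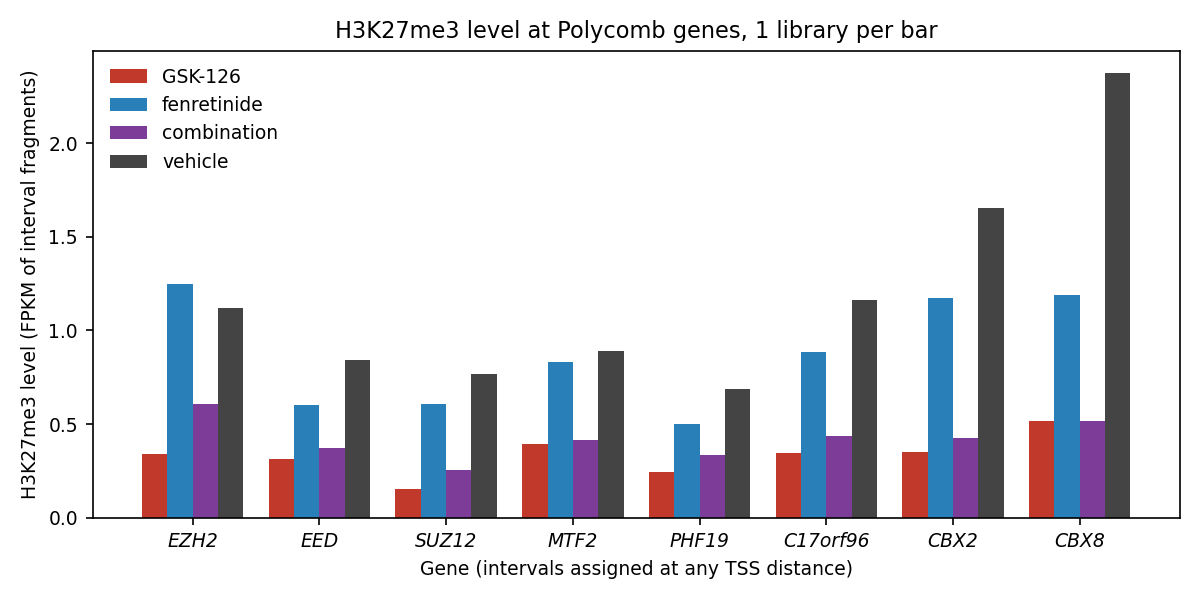
H3K27me3 level at the 8 genes with an assigned interval, in FPKM of interval fragments (vertical axis), for GSK-126, fenretinide, combination and vehicle, 1 library per bar. The GSK-126 bar is below the vehicle bar at every gene, and the fenretinide bar is above the vehicle bar at EZH2 alone.

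The PRC2 core genes EED, EZH2 and SUZ12 all fell with GSK-126. EED, whose product binds H3K27me3 and stimulates the complex, had 4 intervals within 10 kb, 7694 bp in total and all upstream. They held 20 fragments with GSK-126, 95 with fenretinide, 29 with the combination and 115 with vehicle. The GSK-126 and combination libraries were low and the fenretinide library lay nearer to vehicle. The ratio to vehicle was 0.184 (0.109 to 0.298) for GSK-126, 0.748 (0.564 to 0.990) for fenretinide and 0.273 (0.175 to 0.414) for the combination. The EED intervals fell with GSK-126 and with the combination. All 4 are among the consensus intervals only through vehicle or fenretinide peaks. Their ratios and counting intervals thus describe places picked where those libraries were high.

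Within this stretch, the falls did not sit in a single interval. The interval 2415 to 3962 bp upstream of EED, at chr11:86240791-86242338, had 3 fragments with GSK-126, 27 with fenretinide, 7 with the combination and 33 with vehicle. The next one outward, at chr11:86236601-86239719, had 7, 40, 18 and 43 fragments in the same libraries. Farther out, the interval at chr11:86223179-86225754 held 28 fragments with GSK-126, 31 with fenretinide, 24 with the combination and 41 with vehicle. Its GSK-126 ratio of 0.724 (0.431 to 1.2) did not pass the rule.

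EZH2, the methyltransferase that GSK-126 inhibits, had 1 interval, at chr7:148888408-148894041. The deposited lists placed its peaks 40473 to 40901 bp upstream, because they count from a start 33771 bp inside the RefSeq span, while the interval begins 4117 bp from the RefSeq 5′ end. It held 31 fragments with GSK-126, 133 with fenretinide, 54 with the combination and 108 with vehicle. Fenretinide was the highest library and GSK-126 the lowest. EZH2 fell to 0.304 of vehicle with GSK-126 (0.197 to 0.457), whereas the combination at 0.542 (0.383 to 0.758) and fenretinide at 1.11 (0.858 to 1.45) did not pass the rule. With DESeq2, TMM and background scaling, the combination ratio was 0.495, 0.485 and 0.308 and passed it. The combination stood at 1.78 times GSK-126 (1.12 to 2.86), which is short of the 2-fold rule.

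SUZ12, which holds the core together, had 3 intervals between 11101 and 15688 bp upstream, with 11 fragments with GSK-126, 51 with fenretinide, 18 with the combination and 58 with vehicle. Most came from the interval at chr17:31922233-31925906, with 9, 42, 11 and 49 fragments. SUZ12 fell with GSK-126 (0.201, 0.0952 to 0.387) and with the combination (0.336, 0.186 to 0.579), and fenretinide was at 0.796 (0.535 to 1.18). None of its intervals had a GSK-126 peak, so the GSK-126 ratio describes places picked through the other libraries. No interval touched the gene spans of EZH2, EED or SUZ12.

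Of the accessory subunits, MTF2 is a Polycomb-like protein that binds unmethylated CG-rich DNA. It had the smallest fall with GSK-126 of the 5 genes measured within 10 kb. Its 1 interval there, of 20419 bp at chr1:93056534-93076952, held 121 fragments with GSK-126, 364 with fenretinide, 138 with the combination and 316 with vehicle. Only the GSK-126 and combination libraries were below vehicle, at 0.406 (0.327 to 0.502) and 0.473 (0.385 to 0.580), while fenretinide was at 1.04 (0.894 to 1.22). Over all 7 intervals assigned to MTF2 the counts were 298 with GSK-126, 742 with fenretinide, 308 with the combination and 718 with vehicle. The 2 farthest upstream intervals, at chr1:93022630-93032398 and chr1:93034291-93037731, were the lowest of the 6 upstream ones with GSK-126, at 0.322 (0.243 to 0.424) and 0.312 (0.137 to 0.646) of vehicle.

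C17orf96 encodes EPOP, a PRC2 subunit that also binds elongin. Its 3 intervals within 10 kb covered 9199 bp and had 21 fragments with GSK-126, 98 with fenretinide, 47 with the combination and 129 with vehicle. The ratio to vehicle was 0.173 (0.103 to 0.275) for GSK-126, 0.688 (0.523 to 0.901) for fenretinide and 0.395 (0.276 to 0.555) for the combination, so the gene fell with GSK-126 and with the combination. The 4 libraries stood in the order GSK-126, combination, fenretinide and vehicle. No GSK-126 peak lay in these intervals, so here too the GSK-126 ratio describes places picked through the other libraries. Farther downstream, an interval of 70088 bp, at chr17:38592812-38662899 and shared with the neighbouring gene SRCIN1, had 422 fragments with GSK-126, 1230 with fenretinide, 503 with the combination and 1451 with vehicle. With it, the GSK-126 ratio was 0.297 (0.267 to 0.331).

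PHF19, another Polycomb-like protein, had 3 intervals inside its RefSeq span, 2 in the first intron and 1 annotated as intergenic, and their peaks lay over 10 kb from the start used by the lists. They held 27 fragments with GSK-126, 64 with fenretinide, 36 with the combination and 80 with vehicle. PHF19 fell to 0.358 of vehicle with GSK-126 (0.222 to 0.560) and to 0.488 with the combination (0.319 to 0.731). The interval nearest to its RefSeq 5′ end was assigned to the neighbour TRAF1 and had 13, 43, 19 and 66 fragments with GSK-126, fenretinide, the combination and vehicle, a GSK-126 ratio of 0.209 (0.106 to 0.382).

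The PRC1 genes CBX2 and CBX8 carried the highest levels of the mark per kb among the 8 genes in vehicle. They stood at 1.65 and 2.37 FPKM at any distance, against 0.689 to 1.16 for the other 6 genes. CBX2 had 3 intervals within 10 kb with 78 fragments with GSK-126, 307 with fenretinide, 92 with the combination and 406 with vehicle. CBX8 had 1 interval of 14828 bp, shared with LOC102723961, with 124 fragments with GSK-126, 334 with fenretinide, 121 with the combination and 603 with vehicle. At both genes vehicle was highest, fenretinide lay between, and GSK-126 and the combination were low. CBX2 fell to 0.204 of vehicle with GSK-126 (0.158 to 0.260) and to 0.246 with the combination (0.194 to 0.309). CBX8 fell to 0.218 (0.178 to 0.265) with GSK-126 and to 0.217 (0.177 to 0.265) with the combination.

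CBX8 had the lowest fenretinide value of the 8 measured genes, 0.501 of vehicle (0.437 to 0.574), just outside the limit of 0.5. Under 3 other scalings it was inside the limit, at 0.457 to 0.462. CBX2 was at 0.684 (0.588 to 0.796) with fenretinide.

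**Figure D2:**
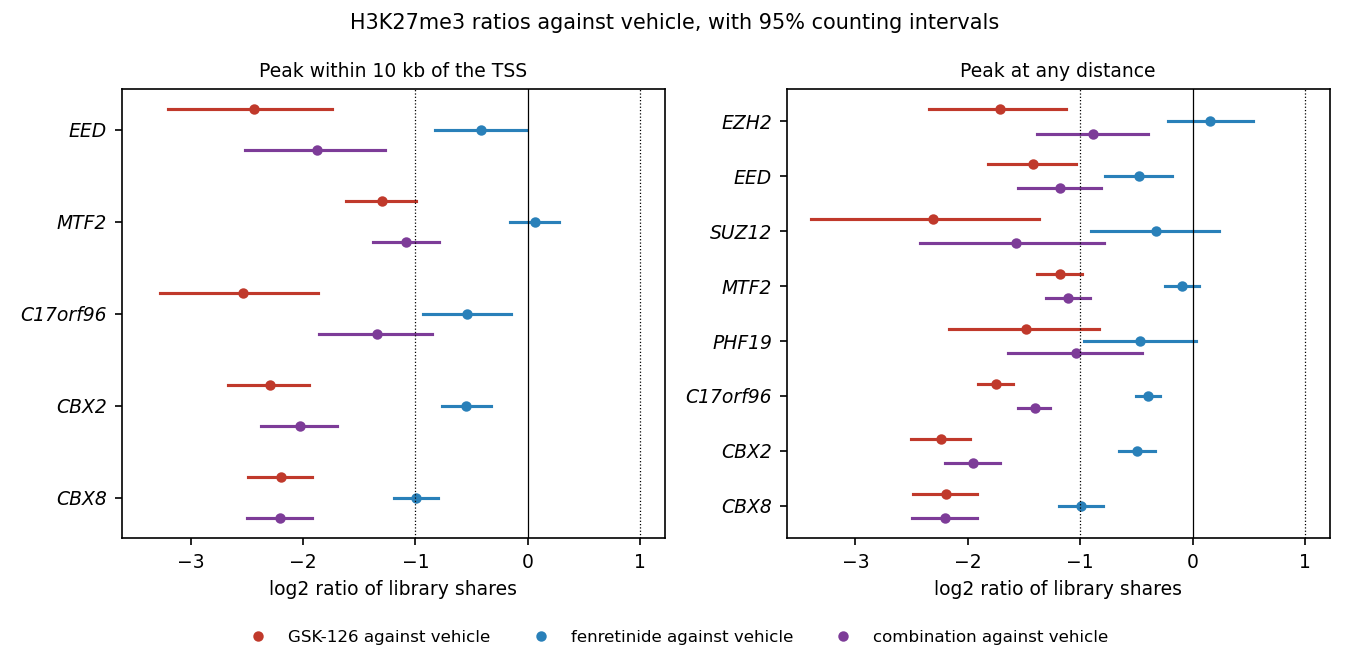
Log2 ratio of library shares against vehicle (horizontal axis) for genes with a peak within 10 kb (left) and at any distance (right). Points are single-library ratios for GSK-126, fenretinide and the combination, bars are 95% counting intervals, and dotted lines mark 2-fold. The GSK-126 points lie left of the lower dotted line at all 8 genes, and no fenretinide point passes it.

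Over the 9 genes, 5 were measured within 10 kb, and all 5 fell with GSK-126, where 41.4% of 14725 measured genes were called lower. None of the 5 was called lower with fenretinide, where 1.5% of 14818 genes were. All 5 fell with the combination, where 32.9% of 14736 genes did. The median log2 ratio to vehicle of the 5 was -2.29 (GSK-126), -0.54 (fenretinide) and -1.85 (combination), beside -0.79, -0.15 and -0.64 over all measured genes. At any distance 8 genes were measured, and 8 fell with GSK-126 (29.6% of genes), none with fenretinide (0.791%) and 7 with the combination (22.1%), EZH2 being the exception. Under DESeq2, TMM and background scaling the combination count was 8, EZH2 included. The GSK-126 and combination values share the vehicle library and are not independent.

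**Figure D3:**
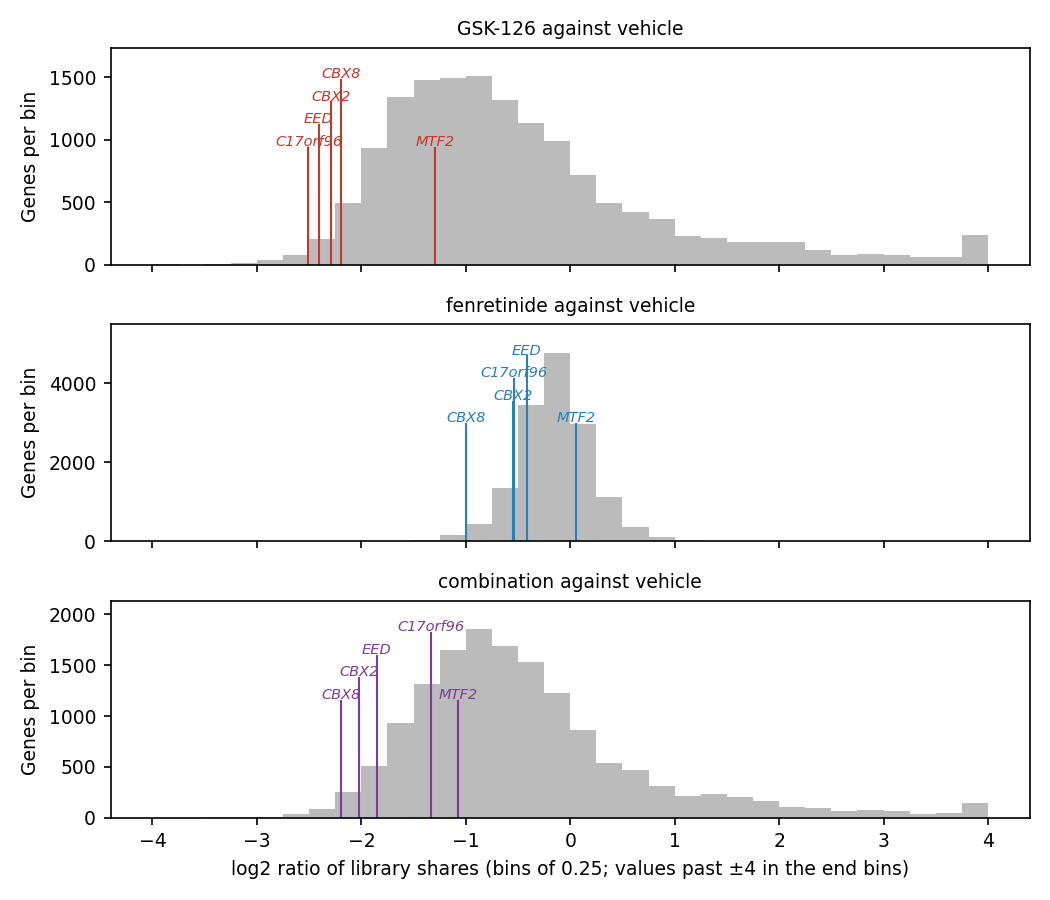
Number of measured genes (vertical axis) by log2 ratio of library shares within 10 kb (horizontal axis) for GSK-126, fenretinide and the combination against vehicle. Vertical lines mark the 5 measured Polycomb genes, 4 of which lie below -2 with GSK-126 while MTF2 is at -1.30.

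The combination against GSK-126 asked what fenretinide added to the inhibitor at these genes. Of the 4 genes measured between the combination and GSK-126, none was lower, where 0.501% of 13777 genes were, and C17orf96 was higher, where 0.443% were. C17orf96 had 47 fragments with the combination and 21 with GSK-126, a ratio of 2.29 (1.34 to 4.03). MTF2 was at 1.17 (0.906 to 1.5), CBX2 at 1.21 (0.882 to 1.65) and CBX8 at 0.997 (0.770 to 1.29), so those intervals include 1. EED had 29 fragments with the combination and 20 with GSK-126, too few to be called.

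The C17orf96 difference did not come from the interval nearest to its 5′ end, which had 10 fragments with the combination and 8 with GSK-126. It came from the interval at chr17:38682309-38687893, 7352 bp upstream, with 29 fragments with the combination and 12 with GSK-126, and from the small one at chr17:38665967-38666472, with 8 and 1 fragments. Over all its intervals, C17orf96 had 550 fragments with the combination and 443 with GSK-126, a ratio of 1.27 (1.12 to 1.44) that did not pass the rule. Set against fenretinide alone, the combination was lower at 4 of 5 genes, where 18.7% of 14631 genes were. Their ratios were 0.365 (0.232 to 0.559) at EED, 0.454 (0.370 to 0.554) at MTF2, 0.359 (0.281 to 0.454) at CBX2 and 0.434 (0.349 to 0.535) at CBX8. C17orf96 was at 0.574 (0.397 to 0.821), which passed the rule only with background scaling, at 0.359.

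The CBX2 and CBX8 loci are neighbours on chromosome 17. Intervals covered 67.3% of a window of 100 kb on either side of the CBX2 5′ end and 66.3% of that around CBX8. Around the other genes the covered share ran from 8.20% at EED and 9.30% at SUZ12 to 42.1% at MTF2 and 50.7% at C17orf96. In the CBX2 window, 11 of 13 measured intervals fell with GSK-126 (21.6% of all intervals) and 10 with the combination (15.8%). With fenretinide 2 fell (2.16%), and no interval there was higher in any of these comparisons. The stretch between CBX2 and CBX8 and the bodies of both genes held 1 small interval, with 2 fragments with GSK-126, 3 with fenretinide, 2 with the combination and 6 with vehicle. Upstream of CBX2, the interval at chr17:79763337-79776480 had 75 fragments with GSK-126, 295 with fenretinide, 90 with the combination and 395 with vehicle. The adjoining interval outward, shared with ENPP7, had 67, 261, 81 and 320 fragments.

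**Figure D4:**
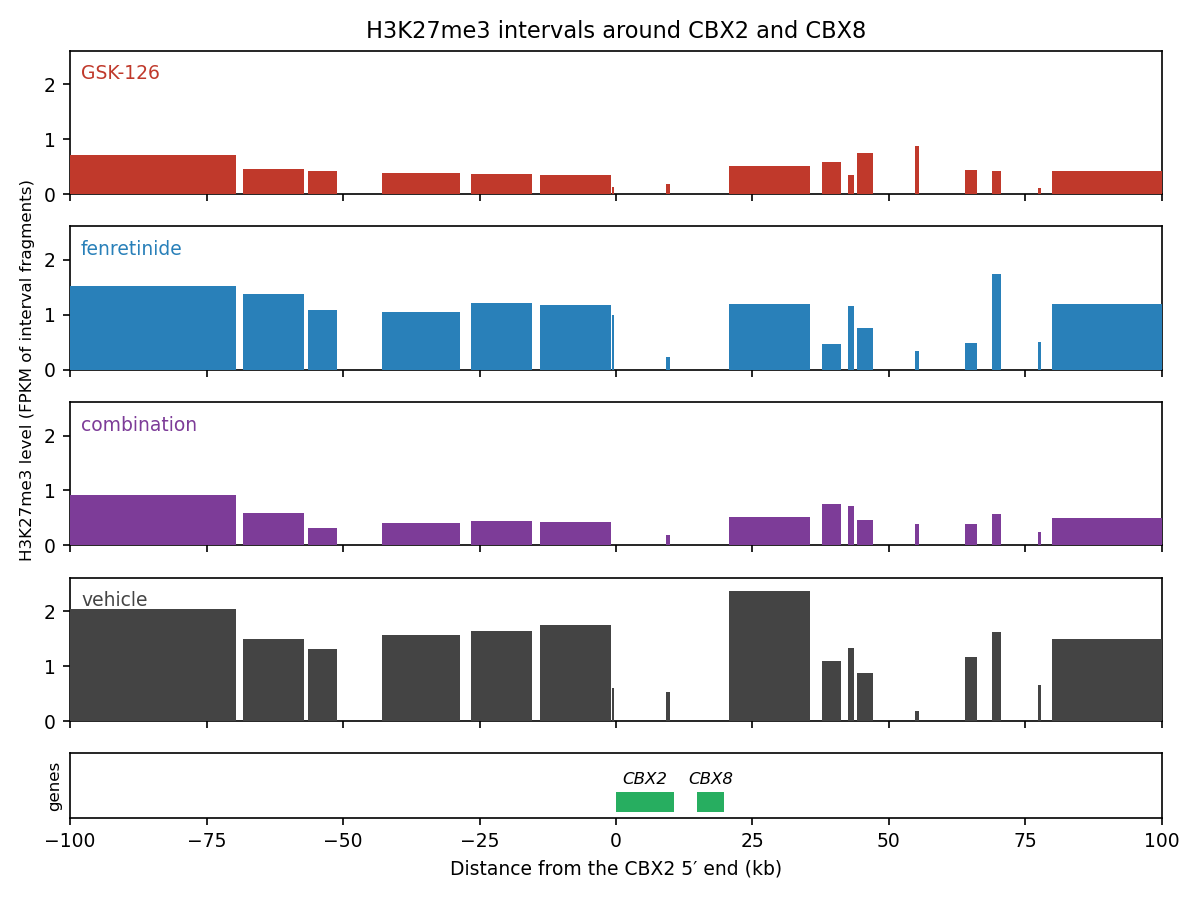
H3K27me3 intervals within 100 kb of the CBX2 5′ end, in FPKM of interval fragments (vertical axis) against distance in kb (horizontal axis), from top to bottom for GSK-126, fenretinide, combination and vehicle, 1 library each, with the spans of CBX2 and CBX8 below. The interval beside CBX8 stands at 0.518 with GSK-126, 1.19 with fenretinide, 0.516 with the combination and 2.37 with vehicle.

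Windows of 100 kb on either side of the 5′ ends held 103 intervals outside the gene spans, and most of the measured ones were lower with GSK-126. Of 72 measured, 46 were lower and 2 higher with GSK-126, where 21.6% and 25.9% of all 156925 measured intervals were. With fenretinide, 3 of 76 were lower and 1 higher, beside 2.16% and 3.31% of 159127. With the combination, 46 of 74 were lower and 2 higher, beside 15.8% and 24.1% of 158263. With background scaling, 64 were lower and 1 higher in each of the GSK-126 and combination comparisons with vehicle. Neighbouring intervals of 1 gene are not independent, and the CBX2 and CBX8 windows overlap, with each interval counted once.

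The window sums, which count in full any interval that reaches into a window, differed between the genes. With GSK-126 they were at 0.262 of vehicle (0.240 to 0.286) around C17orf96, 0.319 (0.304 to 0.335) around CBX2 and 0.334 (0.320 to 0.349) around CBX8. They were at 0.361 around EZH2, 0.379 around SUZ12, 0.389 around EED and 0.419 around MTF2. All 17 intervals of the CBX2 sum are also in the CBX8 sum, so these sums are not separate measurements. The CBX8 sum adds only chr17:79879549-79907463, with 376 fragments with GSK-126 and 856 with vehicle. The largest shared interval, of 132767 bp at chr17:79575014-79707780, lies 89297 to 222063 bp from the CBX8 5′ end. It held 1534 fragments with GSK-126 and 4635 with vehicle. The full sums were 2262 and 7517 around CBX2, and 2638 and 8373 around CBX8. PHF19 was at 0.675 (0.567 to 0.802). In its window, 1 interval that was higher with GSK-126 held 125 of 217 fragments with GSK-126 and 16 of 341 with vehicle. The remaining intervals were at 0.300, a value lowered by leaving that interval out for its GSK-126 call and computed for PHF19 alone. JARID2 was at 1.02 (0.913 to 1.13), with 671 fragments with GSK-126, 852 with fenretinide, 598 with the combination and 700 with vehicle.

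JARID2, a subunit that recruits PRC2, was the 1 gene whose counting interval for the window included 1. With background scaling its window was at 0.598 (0.537 to 0.665). The peaks upstream of it were assigned to the antisense gene JARID2-AS1. One of these intervals, at chr6:15162054-15165807, was higher with GSK-126, with 50 fragments, against 19 with vehicle (2.79, 1.62 to 5.01), or 1.64 (0.95 to 2.95) with background scaling. It held 30 fragments with fenretinide and 42 with the combination. None of the 11 measured intervals of the JARID2 window fell with GSK-126, beside 21.6% of all intervals. With the combination 2 of 12 measured ones fell, beside 15.8% of all intervals.

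Inside the gene spans, MTF2 and JARID2 each had an interval that rose with GSK-126 and with the combination. In intron 1 of MTF2, at chr1:93104961-93108155, there were 35 fragments with GSK-126, 6 with fenretinide, 18 with the combination and 5 with vehicle. In intron 3 of JARID2, at chr6:15415053-15421547 and nearest to LOC102724490, there were 76 with GSK-126, 7 with fenretinide, 51 with the combination and 8 with vehicle. Fenretinide and vehicle were low at both, with no peak called there, while GSK-126 and the combination each had at least 1 peak. The MTF2 interval rose 7.42-fold (2.90 to 24.3) with GSK-126 and 3.90-fold (1.40 to 13.4) with the combination. The JARID2 interval rose 10.1-fold (4.86 to 24.2) with GSK-126 and 6.91-fold (3.25 to 16.9) with the combination. Both intervals are among the consensus intervals only through peaks of these libraries. Their folds and counting intervals thus describe places picked where these libraries were high. With background scaling, which sets libraries to their weakest intervals, the GSK-126 rises were 4.36-fold at MTF2 and 5.92-fold at JARID2. The combination rise was then 3.93-fold at JARID2 and 2.22-fold at MTF2, where it no longer passed the rule.

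These were 2 of the 5 measured intervals that overlap any of the 9 gene spans. Of the other 3, all in PHF19, 2 fell with GSK-126. Over all measured intervals 25.9% were higher and 21.6% lower with GSK-126. An interval of 7606 bp beyond the far end of PHF19, at chr9:120802927-120810532, had 125 fragments with GSK-126, 13 with fenretinide, 104 with the combination and 16 with vehicle, an 8.28-fold rise with GSK-126 (4.91 to 14.9). With background scaling that rise was 4.87-fold (2.88 to 8.79). The interval too had peaks with GSK-126 and the combination only. Summed over its span with 5 kb on either side, MTF2 was at 0.515 of vehicle with GSK-126 (0.423 to 0.626), since the intronic rise and the upstream fall are then added.

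**Figure D5:**
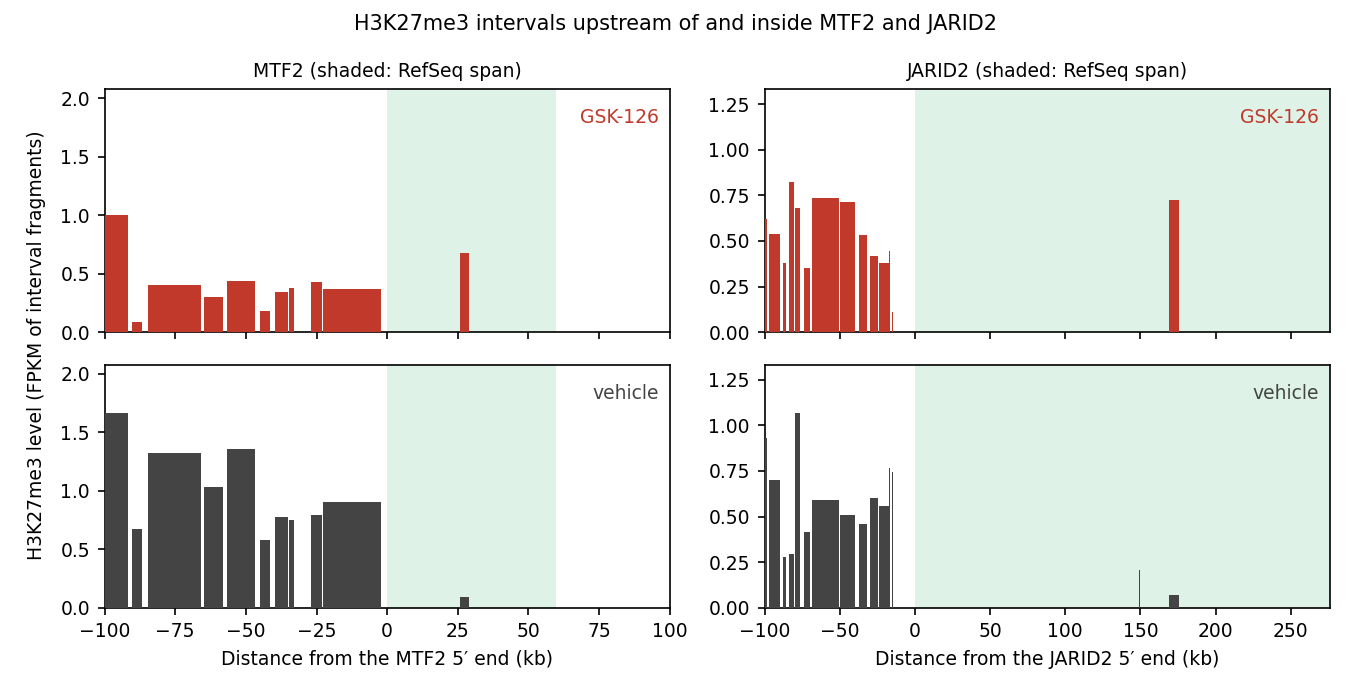
H3K27me3 intervals in FPKM of interval fragments (vertical axis) against distance from the 5′ end in kb (horizontal axis) for MTF2 (left) and JARID2 (right), with GSK-126 above and vehicle below, 1 library each. Intervals within 100 kb of the 5′ end or inside the shaded RefSeq span are drawn, and the intronic intervals reach 0.678 and 0.724 with GSK-126, against 0.0913 and 0.0719 with vehicle.

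A list of 48 other Polycomb genes gave the setting. Within 10 kb, 13 of 22 measured genes were lower with GSK-126, 8 were neither and 1 was higher, where 41.4% of all genes were lower and 11.5% higher, and their median log2 ratio was -1.32. With fenretinide 1 of 24 was lower, BAHD1, beside 1.5% of all genes, with a median of -0.26. With the combination 11 of 22 were lower and 1 higher, where 32.9% and 9.86% of all genes were, with a median of -0.97. At any distance 14 of 33 were lower and 4 higher with GSK-126, where 29.6% and 16.2% of all genes were, with a median of -0.90. By role and within 10 kb, 6 of 8 measured genes of variant PRC1 fell with GSK-126, 3 of 6 other canonical PRC1 genes, 2 of 3 other PRC2 genes, 2 of 2 H3K27 demethylase and reader genes and 0 of 3 PR-DUB genes. These counts depend on the distance, since at any distance 0 of 5 other PRC2 genes and 6 of 10 of variant PRC1 were lower, and KDM6A, an H3K27 demethylase was higher at 13.8-fold (7.67 to 27.3), with 156 fragments with GSK-126 and 12 with vehicle.

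The lowest GSK-126 ratios of that list were at BCORL1, a corepressor of variant PRC1, with 6 fragments with GSK-126 and 49 with vehicle (0.130, 0.0455 to 0.303), and at BAHD1, a reader of the mark, with 43 and 270 (0.169, 0.119 to 0.234). RBBP7, a histone-binding PRC2 subunit, followed with 12 fragments with GSK-126 and 58 with vehicle (0.219, 0.107 to 0.413). At any distance RBBP7 was at 0.514 (0.424 to 0.622), which did not pass the rule, and BCORL1 was at 0.270 (0.209 to 0.346). SCMH1, a canonical PRC1 protein, rose 13.4-fold with GSK-126 (7.90 to 24.3), with 189 fragments, against 15 with vehicle, and it had 162 with the combination. SCMH1 was named for the largest called rise of the list, and KDM6A after its value was seen. Their folds and counting intervals thus describe genes picked for high GSK-126 values. KDM6B, an H3K27 demethylase, was among the lowest with the combination, with 53 fragments, against 206 with vehicle (0.279, 0.202 to 0.379).

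Genes with the most similar set of 3 log2 ratios to vehicle, among 14701 genes, were MIR3678 and PRRC2C for EED, at Euclidean distances of 0.0624 and 0.0691. They were LOC102724561 and LRRCC1 for MTF2 (0.0474 and 0.0551), STK10 and TSPAN33 for C17orf96 (0.0720 and 0.0997), and GPR97 and CAMK1D for CBX2 (0.0885 and 0.0997). For CBX8 they were INS and INS-IGF2, which had the same counts of 79 fragments with GSK-126, 226 with fenretinide, 84 with the combination and 405 with vehicle (0.0894). Each likeness rests on 3 ratios that share the vehicle library.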

How the data were processed

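H3K27me3 ChIP-seq of T24 cells was followed in 4 libraries, 1 per condition. The authors deposited raw fragment counts per consensus interval, made with featureCounts 2.0.1 per the file headers, which counted read pairs without strand and counted a fragment for every interval it overlapped by a fraction of at least 0.2. The authors' deposited peak lists give a peak score with no stated scale and, per the file headers, a distance to the TSS from HOMER. Peaks were called with MACS2 2.1.0 on GRCh38, per the submitters' processing notes. Aligner and control are not given in the sources used here. Coordinates are 1-based.

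Fragments of intervals overlapping a gene's peaks were summed, an interval shared by several genes counting for each. Ratios of library shares carry exact Clopper-Pearson 95% intervals, which cover counting error only, and log2 ratios used a pseudocount of 0.5. Calls needed a 2-fold ratio and 50 fragments per gene, or 20 per interval. The rule was tested on simulated counts that carried counting error only. That test does not cover variation between libraries, and no change of exactly 2-fold was planted. Groups came from the sample titles, and 5 comparisons were made.

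Members, lists and tests were chosen with earlier results of these data known. Named genes were all 9 members, genes sharing an interval with them, up to 3 other Polycomb genes with the largest called rise and fall (GSK-126 and combination against vehicle), and the 2 genes most like each called member with at least 100 fragments. TRAF1, JARID2-AS1, KDM6A and the fenretinide value of BAHD1 were named after their values were seen. Promoter sequences came from RefSeq (GRCh38.p14), where 6 of 9 members matched.

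Alternatives were DESeq2 1.42.0 and edgeR 4.0.16 TMM scaling factors, background scaling, other distances, minimums, ratios, assignment rules and, chosen after seeing the data, distances from RefSeq 5′ ends and rescaled values at any distance and in windows. R 4.3.3 gave the factors, and the rest used matplotlib 3.10.9, scipy 1.17.1, pandas 2.3.3 and numpy 2.4.6 in Python 3.11.15.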

Additional observations from a re-analysis of the deposited data

Results flagged for a closer look

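At 3 of the 5 genes with an interval within 10 kb, the fenretinide library lay below vehicle while the combination lay above GSK-126 alone. The log2 ratio of the combination to GSK-126 was 1.175 at C17orf96, 0.2677 at CBX2 and 0.5561 at EED, and that of fenretinide to vehicle was -0.54, -0.55 and -0.42 at the same genes. Over all measured genes within 10 kb the medians had the same signs, 0.08 for the combination to GSK-126 and -0.15 for fenretinide to vehicle. At any distance they were 0.071 and -0.098. The share of all genes with this order was not computed, so it is not shown to be particular to these genes. With 1 library per condition the difference between these effects was not tested. The counting interval of the combination against GSK-126 excluded 1 at C17orf96 (1.34 to 4.03) and included it at CBX2 (0.882 to 1.65) and EED (0.810 to 2.76). At any distance the same order was seen at SUZ12 and PHF19, which have no interval within 10 kb, with log2 ratios of the combination to GSK-126 of 0.7169 and 0.4394 and of fenretinide to vehicle of -0.33 and -0.46. MTF2 showed it at any distance, at 0.08 and -0.10, and not within 10 kb. The counting intervals of the combination against GSK-126 included 1 at all 3 of these genes.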

How the results depend on the processing

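Each condition had 1 library, so these values describe libraries, and low counts, such as 11 fragments at SUZ12 with GSK-126, widen the intervals. Without a limit on TSS distance, 8 genes instead of 5 were lower with GSK-126, and 8 instead of 5 had a peak. Summed over RefSeq spans with 5 kb on either side, 6 of 8 genes were lower with GSK-126 and 5 of 8 with the combination. The share over all genes was not computed for these spans. JARID2 was then higher, at 8.96 (4.48 to 20.3) and 6.74 (3.31 to 15.5), and MTF2 was not called, at 0.515 and 0.527. The JARID2 intervals in that sum had peaks only with GSK-126 or the combination. Within 2 kb, 1 gene had a peak, and no gene was measured in any comparison. With DESeq2, TMM or background scaling, and at a ratio of 1.5, 1 gene (CBX8) was lower with fenretinide instead of 0. Background scaling shifted every log2 ratio to vehicle by -0.77 (GSK-126), -0.81 (combination) or -0.13 (fenretinide), and those of the combination to fenretinide by -0.68. DESeq2 and TMM factors shifted fenretinide to vehicle by -0.12 (both), the combination to vehicle by -0.13 and -0.16, and the combination to GSK-126 by -0.13 and -0.11. Of 93 recomputed log2 ratios of single genes, 79 stayed inside their counting interval, 14 left it, and 0 of the called ones changed sign. The 12 recomputed ratios of the MTF2 and JARID2 intronic intervals stayed inside theirs. MTF2 with fenretinide, not called, was at 0.957, 0.961 and 0.95 of vehicle with DESeq2, TMM and background scaling, against 1.04. No paired analysis was possible because each condition had 1 library.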
